A study of Rattus norvegicus with 6 samples.

Results

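The ErbB receptors examined here are Egfr, Erbb2 and Erbb3, 3 of the 33692 features counted in rat back skin after afatinib or vehicle. They were chosen as receptors of the family that afatinib targets, by their Ensembl identifiers: ENSRNOG00000004332 for Egfr, ENSRNOG00000006450 for Erbb2 and ENSRNOG00000004964 for Erbb3. All 3 were present in each of the 6 count tables and passed the filter on low counts, as did 15497 features in all. The tables give identifiers without symbols, so these names come from the definition of the set and could not be checked against the tables or the gene reference used here. Whole back skin from rats that received vehicle (3 libraries) was compared with skin from rats that received afatinib (3 libraries). Strain, age, sex, dose, route and duration are not stated in the labels. They also do not say whether each library is a separate animal. The p-values therefore set the group difference against the spread between these libraries, which may be partly technical.

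The ErbB family consists of receptor tyrosine kinases that sit in the cell membrane and work in pairs. EGFR, the product of Egfr, binds epidermal growth factor and its relatives. ErbB2 has no known ligand of its own and serves as a partner for the other members, and ErbB3 binds neuregulins, has little kinase activity and recruits phosphoinositide 3-kinase once a partner has phosphorylated it. In skin, EGFR signalling in basal keratinocytes and hair follicles maintains proliferation and restrains differentiation. Afatinib binds irreversibly to a cysteine beside the ATP pocket of EGFR and ErbB2, and drugs that block EGFR often cause a rash. The series asked which early transcript changes occur in skin under such a drug. For the receptors the comparison is one of transcript level, and the files hold no measure of receptor protein or kinase activity.

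The start site regions listed for the receptor genes are shown as background. Whether the counted transcripts begin there was not tested. RefSeq's promoter table for the rat assembly GRCr8 held a window for 2 of the 3 receptors, Egfr and Erbb2, and the 250 bases before the listed start are printed 5′ to 3′. The window of Egfr is chr14:95378376-95378625 and that of Erbb2 is chr10:83907351-83907600, both on the plus strand. Capitals mark GGGCGG, the GC box bound by Sp1 family factors, and TCCTCC, a repeat chosen after the sequences were read, each on either strand.
Egfr: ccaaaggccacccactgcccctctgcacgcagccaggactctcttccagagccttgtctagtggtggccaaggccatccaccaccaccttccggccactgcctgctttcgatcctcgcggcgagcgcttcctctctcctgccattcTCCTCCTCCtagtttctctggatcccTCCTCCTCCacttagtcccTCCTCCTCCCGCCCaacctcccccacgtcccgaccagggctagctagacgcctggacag
Erbb2: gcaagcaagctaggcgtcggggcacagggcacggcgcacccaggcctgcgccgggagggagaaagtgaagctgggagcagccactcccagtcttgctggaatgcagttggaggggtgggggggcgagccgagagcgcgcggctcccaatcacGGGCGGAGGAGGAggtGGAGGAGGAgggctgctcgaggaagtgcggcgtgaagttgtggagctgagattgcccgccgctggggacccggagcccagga
Both windows were rich in G and C, at 63.6% in Egfr and 69.2% in Erbb2, against a median of 51.2% over all 33469 windows of the table. Each held 1 GC box, which overlapped a TCCTCC repeat, and 30.5% of all windows held at least 1 GC box. TCCTCC, counted with overlaps, occurred 6 times in Egfr and 4 times in Erbb2, on opposite strands, and 27.5% of all windows held it at least once. TATAAA, the core of a TATA box (12.9% of all windows), and TGTTTAC, a sequence bound by FOXO factors (3.21% of all windows), were searched on both strands and were in neither window. These matches describe the letters only and were not tied to the counts. In the same annotation, no other gene overlapped the spans of Egfr and Erbb3, and 1 small nuclear RNA gene lay within that of Erbb2. The labels give neither the build nor the strand setting behind the deposited counts.

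The libraries held between 15304166 and 18494281 counts, with the 3 afatinib totals below the 3 vehicle totals. Levels are given as CPM, the usual library-scaled read count, after TMM scaling, a correction for the share of counts taken by abundant features. The scaling factors were 1.11 and 1.11 in afatinib replicates 1 and 2 and 0.915 in afatinib replicate 3, against 0.968, 0.908 and 1.01 in the vehicle libraries. Afatinib replicate 3 thus resembled the vehicle libraries in this factor. Across all tested features its log2 CPM also correlated more closely with vehicle replicates 1 and 3 (Pearson r across features, 0.960 and 0.958) than with afatinib replicates 1 and 2 (0.907 and 0.944). Its correlation with vehicle replicate 2 was 0.943, close to that with afatinib replicate 2. Vehicle replicate 2 in turn correlated less with vehicle replicates 1 and 3 (0.944 and 0.931) than these did with each other (0.973). Receptor results are given with and without afatinib replicate 3. It was singled out because its profile lay near the vehicle libraries, so leaving it out favours a larger difference, and values without it are no separate support. CPM is not corrected for transcript length, so levels are compared between libraries and not between the receptors.

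The measured level of Egfr was higher in every afatinib library than in any vehicle library, as for 12.9% of all tested features. Its counts were 729, 502 and 537 in vehicle replicates 1, 2 and 3 and 944, 978 and 710 in afatinib replicates 1, 2 and 3. The corresponding levels were 40.9, 31.7 and 30.8 CPM after vehicle and 55.7, 54.2 and 46.1 CPM after afatinib. The groups did not overlap, the lowest afatinib library being 1.13 times the highest vehicle library. The 95% intervals for counting error of these 2 libraries overlapped (42.8 to 49.6 and 38.0 to 44.0 CPM). Vehicle replicate 1 was the highest of its group and afatinib replicate 3 the lowest of its own. Mean Egfr was 34.4 ± 5.59 CPM after vehicle and 52.0 ± 5.17 CPM after afatinib (SD, n = 3 each), and edgeR fitted a log2 fold change of 0.59, or 1.51-fold. Egfr varied least within groups of the 3 receptors, with coefficients of variation of 16.2% in vehicle and 9.94% in afatinib libraries.

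Erbb2 had the fewest counts of the set, and its groups overlapped. Its counts were 195, 101 and 226 in vehicle replicates 1, 2 and 3 and 315, 330 and 148 in afatinib replicates 1, 2 and 3. The levels were 10.9, 6.37 and 13.0 CPM after vehicle and 18.6, 18.3 and 9.61 CPM after afatinib. Afatinib replicates 1 and 2 lay above all vehicle libraries, and afatinib replicate 3 lay below vehicle replicates 1 and 3. Mean Erbb2 was 10.1 ± 3.38 CPM after vehicle and 15.5 ± 5.10 CPM after afatinib (SD, n = 3 each). The fitted log2 fold change of Erbb2 was 0.62 in edgeR, or 1.54-fold, close to that of Egfr. Its coefficients of variation were larger, at 33.5% in vehicle and 32.9% in afatinib libraries.

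Erbb3 showed the largest difference of the 3 receptors. Its counts were 845, 502 and 895 in vehicle replicates 1, 2 and 3 and 2607, 2133 and 906 in afatinib replicates 1, 2 and 3. The levels were 47.4, 31.7 and 51.3 CPM after vehicle and 153.9, 118.2 and 58.8 CPM after afatinib. The groups did not overlap, which held in this direction for 12.9% of all tested features. Afatinib replicate 3 was only 1.15 times the highest vehicle library, while afatinib replicates 1 and 2 stood far above it. Mean Erbb3 was 43.5 ± 10.4 CPM after vehicle and 110.3 ± 48.0 CPM after afatinib (SD, n = 3 each), and edgeR fitted a log2 fold change of 1.34, or 2.54-fold. The afatinib libraries differed among themselves by 2.62-fold in Erbb3, which is as large as the fitted difference between the groups.

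**Figure D1:**
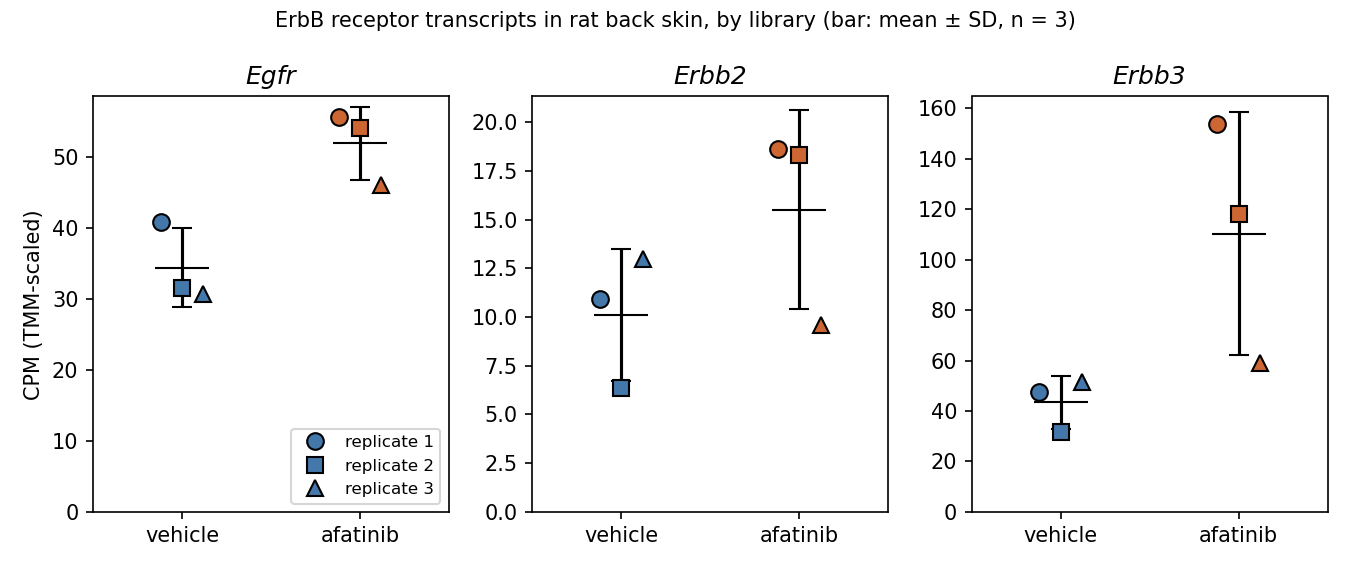
Level of each receptor (y axis, TMM-scaled CPM, starting at 0, with its own range in each panel) in the vehicle and afatinib libraries (x axis), with a point for each library, its shape giving the replicate number, and bars for mean ± SD (n = 3). Afatinib replicate 3 (46.1, 9.61 and 58.8 CPM for Egfr, Erbb2 and Erbb3) is the lowest afatinib library in each panel and lies within the vehicle range only for Erbb2.

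Set against all features, no receptor passed the main test. By edgeR's quasi-likelihood test with Benjamini-Hochberg adjustment over 15497 features, the adjusted p was 0.192 for Egfr, 0.357 for Erbb2 and 0.197 for Erbb3. The test called 0% of all features at an adjusted p of 0.05, with 3023 at an unadjusted p under 0.05, and its smallest adjusted p was 0.185. Ordered by its p, Egfr took place 599, Erbb3 place 857 and Erbb2 place 5735 among the tested features. Egfr and Erbb3 were higher in afatinib-treated skin at an unadjusted p under 0.05, as were 10.3% of all tested features. The 3 afatinib libraries were all above the 3 vehicle libraries for the same 2 receptors and for 12.9% of all features.

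The size of the differences was placed in the same background. The fold change of Erbb3 exceeded that of 95.3% of tested features, that of Erbb2 86.9% and that of Egfr 86.4%. The smaller p of Egfr, which had the smallest fold change, went with its smaller spread between libraries. Limma voom estimated a log2 fold change of 0.60 for Egfr (SE 0.16, 95% interval 0.22 to 0.98). For Erbb2 it gave 0.62 (SE 0.37, 95% interval -0.27 to 1.504), which includes no difference and also a difference as large as that of Erbb3. For Erbb3 it gave 1.26 (SE 0.38, 95% interval 0.35 to 2.16). Limma's adjusted p was 0.220, 0.367 and 0.226 for Egfr, Erbb2 and Erbb3, and limma called 0% of all features.

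**Figure D2:**
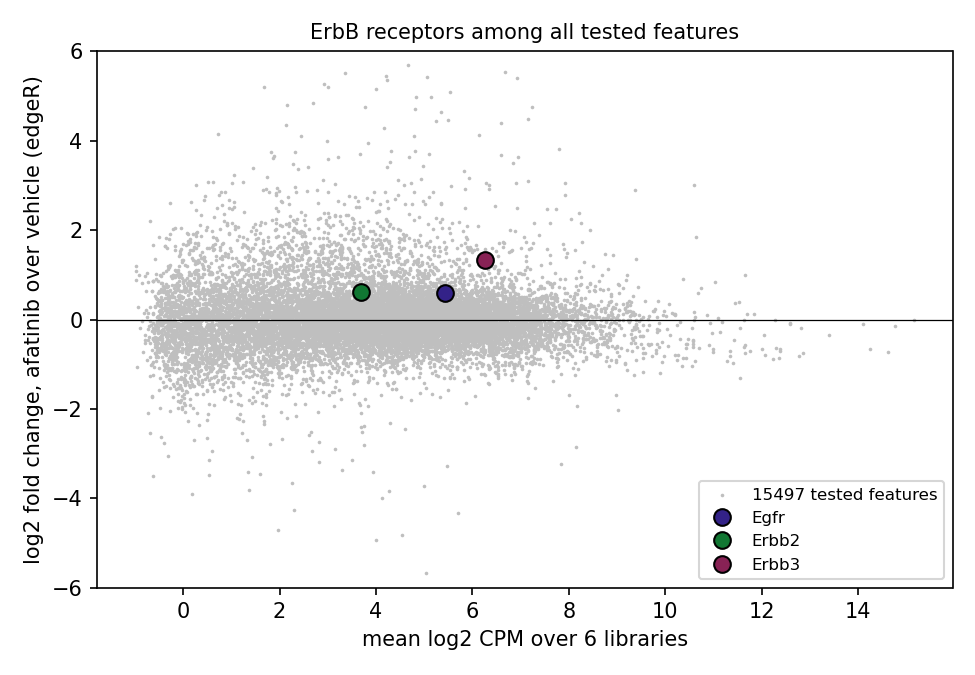
Log2 fold change of afatinib over vehicle in edgeR (y axis, cut at 6 in each direction, which leaves 31 features outside the plot) against mean log2 CPM over the 6 libraries (x axis) for all 15497 tested features (grey) and the 3 receptors (coloured). Egfr and Erbb2 sit at nearly the same height (0.59 and 0.62), and Erbb3 sits above them at 1.34.

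DESeq2, which fits the spread of each feature differently, gave similar fold changes and smaller p-values for the receptors. It estimated log2 fold changes of 0.61 (SE 0.20) for Egfr, 0.63 (SE 0.40) for Erbb2 and 1.35 (SE 0.40) for Erbb3. The DESeq2 adjusted p was 0.0462 for Egfr, 0.341 for Erbb2 and 0.0183 for Erbb3, so that Egfr and Erbb3 passed, as did 3.9% of the features to which DESeq2 gave an adjusted p, counting those higher after afatinib. Each of these DESeq2 calls was lost when any of 4 libraries was left out, in fits with fewer libraries and with fold changes of similar size. Egfr was no longer called in DESeq2 when vehicle replicate 2, vehicle replicate 3, afatinib replicate 1 or afatinib replicate 2 was left out (adjusted p = 0.280, 0.150, 0.189 and 0.232, log2 fold changes 0.55, 0.53, 0.55 and 0.58). Erbb3 was no longer called in DESeq2 without vehicle replicate 1, vehicle replicate 2, afatinib replicate 1 or afatinib replicate 2 (adjusted p = 0.105, 0.140, 0.146 and 0.162, log2 fold changes 1.42, 1.17, 1.04 and 1.31).

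Afatinib replicate 3 was compared with the other 2 afatinib libraries for each receptor. On the log2 CPM scale, Egfr in this library lay 0.43 above the vehicle mean, where the mean of afatinib replicates 1 and 2 lay 0.68 above it. Erbb3 lay 0.47 above the vehicle mean, against 1.66 for the mean of afatinib replicates 1 and 2. Erbb2 lay at the vehicle mean, with a difference of -0.0089, against 0.92. On this TMM-scaled measure the library showed most of the Egfr difference of the other 2 afatinib libraries. It showed a small part of the Erbb3 difference and none of the Erbb2 difference. The Egfr share depended on the scaling. Unscaled Egfr was 42.2 CPM in this library and 61.7 and 60.2 CPM in afatinib replicates 1 and 2. It was 39.4, 28.7 and 30.8 CPM in vehicle replicates 1, 2 and 3, nearer to this library's level.

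Without afatinib replicate 3, the log2 fold change was 0.67 for Egfr, 0.86 for Erbb2 and 1.64 for Erbb3. Erbb3 then passed edgeR's quasi-likelihood test with an adjusted p of 0.0277, as did 5.18% of all tested features in the same direction, while Egfr had 0.0527 and Erbb2 0.116. In DESeq2 without this library the adjusted p was 0.00478 for Egfr, 0.0561 for Erbb2 and 1.72e-07 for Erbb3, with 12.9% of features called higher. With any other single library left out, edgeR's adjusted p for the receptors was at least 0.315. Every fold change stayed above 0 in these fits, that of Erbb2 falling to 0.37 in edgeR without vehicle replicate 2, its lowest library.

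**Figure D3:**
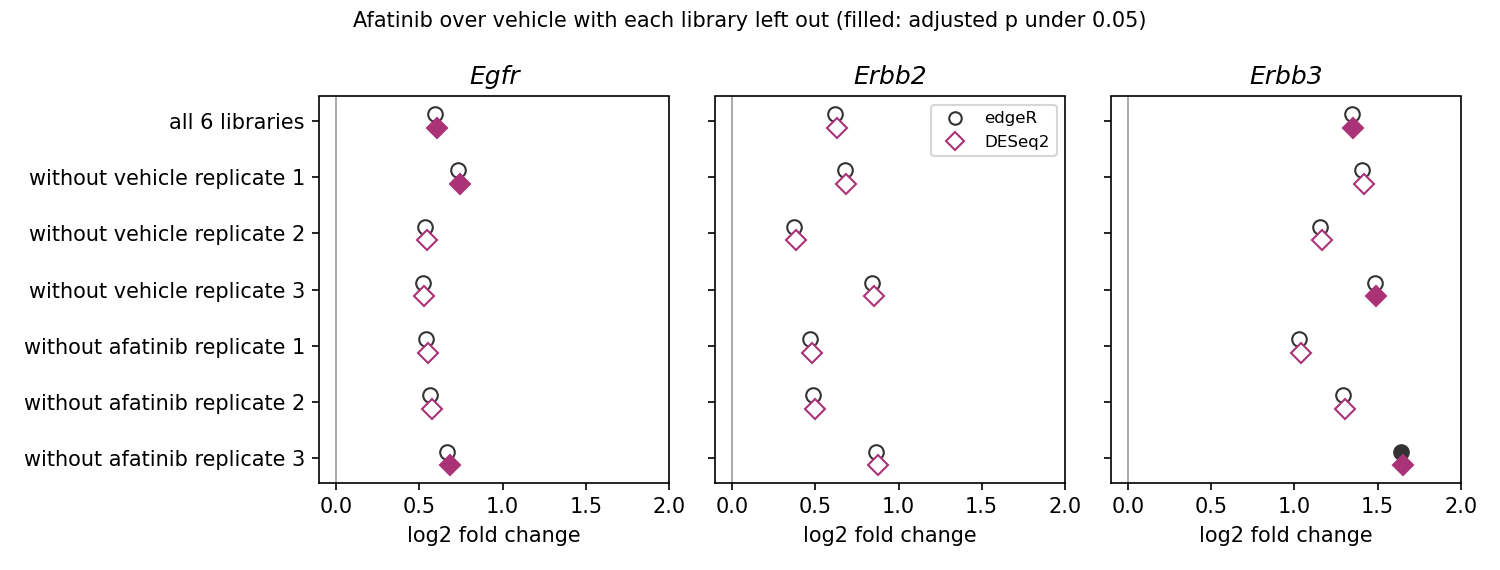
Log2 fold change of afatinib over vehicle (x axis) for each receptor with all 6 libraries and with each library left out in turn (y axis), in edgeR (circles) and DESeq2 (diamonds), filled where the adjusted p was under 0.05. The only filled circle is Erbb3 without afatinib replicate 3, at 1.64, and no symbol is filled for Erbb2.

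The order of the libraries was compared between the receptors. Afatinib replicate 1 was the highest library and afatinib replicate 2 the next for all 3 receptors. Their 95% counting intervals were apart only for Erbb3 (148.1 to 159.9 and 113.2 to 123.3 CPM). They overlapped for Egfr (52.2 to 59.4 and 50.9 to 57.7 CPM) and Erbb2 (16.6 to 20.8 and 16.4 to 20.4 CPM). The highest vehicle library was replicate 1 for Egfr (40.9 CPM) and replicate 3 for Erbb2 and Erbb3 (13.0 and 51.3 CPM). The intervals of vehicle replicates 3 and 1 overlapped for Erbb2 (11.3 to 14.8 and 9.46 to 12.6 CPM) and Erbb3 (48.0 to 54.8 and 44.3 to 50.7 CPM). Vehicle replicate 2 was the lowest library for Erbb2 and Erbb3. For Egfr, vehicle replicates 2 and 3 were not resolved, with overlapping counting intervals (28.9 to 34.6 and 28.3 to 33.5 CPM) and an order that turned with the scaling (31.7 and 30.8 TMM-scaled CPM, 28.7 and 30.8 unscaled CPM).

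Ratios between receptor counts within a library need no scaling between libraries, and their difference between groups does not depend on transcript length. Erbb3 to Erbb2 was 4.33, 4.97 and 3.96 in vehicle replicates 1, 2 and 3 and 8.28, 6.46 and 6.12 in afatinib replicates 1, 2 and 3. These groups did not overlap, and afatinib replicate 3 lay on the side of the other afatinib libraries. Its Erbb2 level (9.61 CPM), the denominator, was below that of afatinib replicates 1 and 2 (18.6 and 18.3 CPM). That level was within the vehicle range (6.37 to 13.0 CPM). On the log2 CPM scale, Erbb2 in afatinib replicate 3 lay at the vehicle mean (-0.0089) and Erbb3 lay 0.47 above it. The Erbb3 level of this library was only 1.15 times the highest vehicle library. The exact 95% counting intervals of the ratio in the nearest libraries, 5.14 to 7.33 in afatinib replicate 3 and 4.01 to 6.22 in vehicle replicate 2, overlapped. The log2 ratio was 2.14 ± 0.17 after vehicle and 2.79 ± 0.23 after afatinib (SD, n = 3 each), a difference of 0.65. The two-sided exact permutation p was 0.1, the smallest that 3 against 3 libraries allow, and 0.3 after Benjamini-Hochberg adjustment over the 3 ratios.

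The other ratios overlapped between the groups. Erbb3 to Egfr was 1.159, 1.0 and 1.67 in vehicle replicates 1, 2 and 3 and 2.76, 2.18 and 1.28 in afatinib replicates 1, 2 and 3. Afatinib replicates 1 and 2 were above all vehicle libraries in this ratio, and afatinib replicate 3 was within their range. The log2 difference was 0.66, beside SDs of 0.38 in vehicle and 0.57 in afatinib libraries (two-sided exact permutation p = 0.2, adjusted p = 0.3, in a design that allows no p below 0.1). Erbb2 to Egfr was 0.267, 0.201 and 0.421 in vehicle replicates 1, 2 and 3 and 0.334, 0.337 and 0.208 in afatinib replicates 1, 2 and 3. Its log2 difference was 0.02 (two-sided exact permutation p = 0.9, adjusted p = 0.9), beside SDs of 0.54 in vehicle and 0.40 in afatinib libraries.

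**Figure D4:**
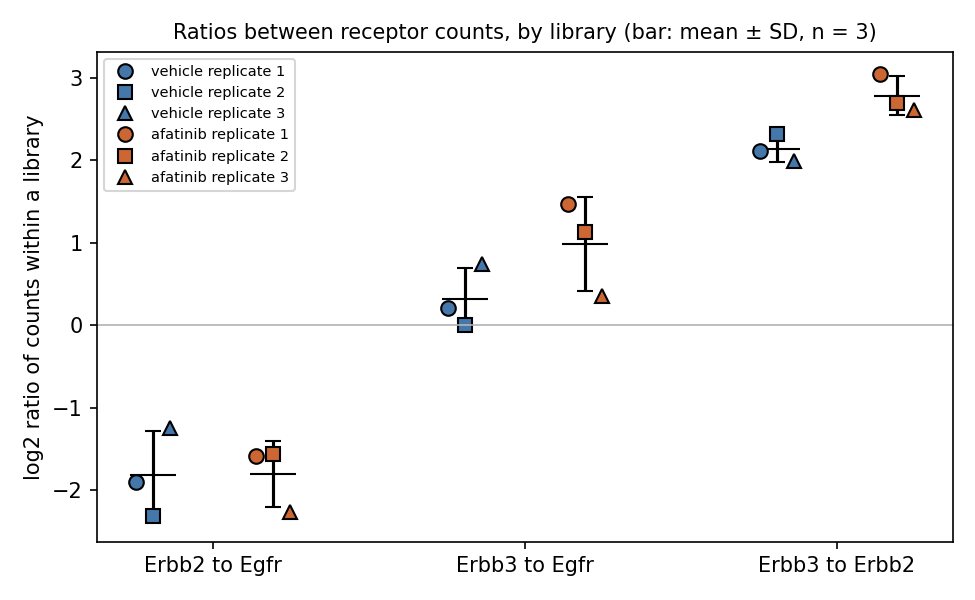
Log2 ratio of the counts of 2 receptors within a library (y axis) for the 3 pairs of receptors (x axis), in vehicle (blue) and afatinib (orange) libraries, with a point for each library and bars for mean ± SD (n = 3). The groups are separate for Erbb3 to Erbb2 (vehicle mean 2.14, afatinib mean 2.79) and overlap for the other 2 ratios.

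Counting error was small beside the spread between libraries. From the counts, its coefficient of variation ran from 3.20% to 4.46% for Egfr, from 5.50% to 9.95% for Erbb2 and from 1.96% to 4.46% for Erbb3. Exact 95% binomial intervals were carried over to the TMM-scaled levels. Erbb2 in vehicle replicate 2, the library with its fewest counts, had an interval of 5.19 to 7.74 CPM, and in afatinib replicate 1 of 16.6 to 20.8 CPM. For Erbb3 the interval of vehicle replicate 3 (48.0 to 54.8 CPM) lay just below that of afatinib replicate 3 (55.1 to 62.8 CPM). On unscaled CPM these Erbb3 intervals overlapped (48.0 to 54.8 and 50.4 to 57.4), so the gap between these 2 libraries depended on the scaling. For Egfr the intervals of vehicle replicate 1 (38.0 to 44.0 CPM) and afatinib replicate 3 (42.8 to 49.6 CPM) overlapped. Such intervals cover counting error only.

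Library totals moved with the groups, while the scaling factor of afatinib replicate 3 lay within the vehicle range, and the receptors were recomputed with other totals and scalings. After random thinning of each library to the total of the smallest, the log2 fold changes were 0.58 for Egfr, 0.64 for Erbb2 and 1.34 for Erbb3, close to those on all counts. With total counts only, they were 0.72, 0.76 and 1.49, and the median over all tested features moved from -0.0031 to 0.12. In bulk skin, more cells that carry a receptor and more transcript per cell cannot be told apart. The share of keratinocytes or other cell types in each library, and whether the libraries carry skin markers, were not tested, because no identifier could be paired with a marker gene.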

How the data were processed

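RNA from frozen rat back skin was extracted with Trizol and sequenced on Illumina libraries, per the labels' protocols. The deposited values are raw read counts per gene, 1 table per library, per the file headers. HISAT2 2.0.5, featureCounts 1.5.0-p3 and DESeq2 1.16.1 are named in the submitters' processing notes; build, annotation, strand and multi-mapping settings: not given in the sources used here. Groups and replicate numbers came from the titles; the file headings number the afatinib libraries 3, 4 and 5. From these counts, edgeR 4.0.16 (R 4.3.3) was run with filterByExpr, TMM scaling and a robust quasi-likelihood fit on group alone, over all 15497 features, with Benjamini-Hochberg adjustment at 0.05. Log2 CPM used a prior count of 2. Limma 3.58.1 (voom), DESeq2 1.42.0, other scalings and filters, a replicate block and each library left out were alternatives; thinning and the repeats of DESeq2 were added after seeing the data. Ratios were tested by exact permutation (scipy 1.17.1). The code was tested on simulated data. Members and lists were chosen with earlier results of these data known. The naming rule took the 3 receptors, members of 18 pathway and marker lists and the genes of most similar pattern, where symbols could be paired. None of the 47357 reference genes carried an Ensembl identifier and 0 features matched, so only the receptors are named, and Erbb4, the ErbB ligands and the lists were not analysed here.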

Additional observations from a re-analysis of the deposited data

How the results depend on the processing

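The fold changes of Egfr, Erbb2 and Erbb3 kept their direction under all alternatives run, and Erbb2 passed an adjusted p of 0.05 in none. Over the edgeR and limma settings with all 6 libraries, the adjusted p lay between 0.176 and 0.386 for Egfr, 0.328 and 0.505 for Erbb2, and 0.186 and 0.386 for Erbb3. DESeq2 called Egfr (log2 fold change 0.61) and Erbb3 (1.35), and of its fits without 1 library called Egfr without vehicle replicate 1 (0.74) or afatinib replicate 3 (0.68) and Erbb3 without vehicle replicate 3 (1.49) or afatinib replicate 3 (1.65). Leaving out 1 library moved the log2 fold change of Egfr between 0.52 and 0.74, that of Erbb2 between 0.37 and 0.88 and that of Erbb3 between 1.03 and 1.65 over edgeR and DESeq2, with edgeR's one call being Erbb3 (1.64) without afatinib replicate 3. Over all features, edgeR with all libraries gave 0 calls in each setting and DESeq2 gave 593 higher and 439 lower. Leaving out 1 library gave 0 to 829 higher and 0 to 798 lower calls in edgeR, with 1 higher call without vehicle replicate 1 and 51 lower calls without vehicle replicate 2. At an unadjusted p under 0.05, the 3023 features became 1725 to 5315 in edgeR with 1 library left out (1793 and 1982 without vehicle replicates 1 and 2, 1796 and 1725 without afatinib replicates 1 and 2); the highest values in each case were those without afatinib replicate 3. Of the ratios, Erbb3 to Erbb2 differed by 0.52 to 0.73 (log2) and Erbb3 to Egfr by 0.42 to 0.98 with 1 library left out. The difference in Erbb2 to Egfr ran from -0.23 to 0.30 and changed sign without vehicle replicate 1 (-0.023) or 2 (-0.23) and without afatinib replicate 1 (-0.093) or 2 (-0.10). With medians in place of means, the differences were 0.32 for Erbb2 to Egfr, 0.91 for Erbb3 to Egfr and 0.58 for Erbb3 to Erbb2. The cause of these shifts was not tested. Deviations of same-numbered libraries correlated at 0.20, -0.21 and -0.39 (others -0.37 to 0.43) across features. Same-numbered libraries were thus not more alike than the others, and the design gives no pairing. With the replicate block, the log2 fold changes were 0.60, 0.62 and 1.28 for Egfr, Erbb2 and Erbb3 in edgeR, with 0 calls over all features and 1982 at an unadjusted p under 0.05; in DESeq2, the block gave 229 higher and 143 lower calls and left neither Egfr nor Erbb3 called (adjusted p = 0.193 and 0.0713). The receptors relative to keratinocyte markers and the gene lists were not run, because no symbol could be paired with a feature.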
